A study of Mus musculus with 18 samples.

Results

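The nuclear genes for subunits of the respiratory chain and ATP synthase were examined in RNA from activated mouse CD4 T cells. A gene counted as a member when its Entrez identifier mapped to a protein-coding mouse symbol that begins with Ndufa, Ndufb, Ndufc, Ndufs, Ndufv, Uqcr or Atp5, that is Sdha, Sdhb, Sdhc or Sdhd, or that belongs to the Cox4 to Cox8 series. Ndufa4 and the assembly factors with symbols in Ndufaf and Sdhaf were left out. The rule found 86 genes among the 27179 identifiers of the deposited tables: 39 of complex I, 4 of complex II, 8 of complex III, 18 of complex IV and 17 of ATP synthase, also called complex V. Of these, 80 had a value above 0 in at least 1 library, and 77 passed the filter on low counts and were tested. The 18 libraries form 6 groups of 3, which combine a genotype label, CD4Cre- Maf fl/fl or CD4Cre+ Maf fl/fl, with a culture treatment labelled Tfh_A, Tfh_1 or Tfh_5 and written TfhA, Tfh1 and Tfh5 here. All groups therefore carry the floxed alleles of Maf, the gene of the transcription factor c-Maf, and the CD4Cre transgene deletes floxed sequence in T cells. In all groups naive CD4 T cells were activated by plate-bound anti-CD3 and anti-CD28 over 3.5 days of culture. What the 3 treatments contained was not stated in the labels, and their names are used as they stand. Replicate numbers are 2, 4 and 5 for Cre- and 1, 3 and 6 for Cre+ libraries. Nothing in the sources used here says that they are separate animals, so the p-values refer to the variation among these libraries alone, and that variation may be technical.

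The respiratory chain sits in the inner mitochondrial membrane. Complex I takes electrons from NADH and complex II from succinate, both pass them to ubiquinone, complex III hands them to cytochrome c, and complex IV reduces oxygen. Complexes I, III and IV pump protons, and ATP synthase uses the return of those protons to make ATP. Most subunits are encoded in the nucleus and a few, all of them central to catalysis or proton flow, in mitochondrial DNA. Resting T cells depend mainly on this pathway, and activation raises both glycolysis and mitochondrial mass.

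The libraries held 6424874 to 9236153 counts each, of which 74340 to 122931 belonged to the 86 genes. The most abundant pair of identifiers, which have no name in the reference table, took 19.7% to 46.2% of a library, and this share was lowest on average in Cre- TfhA, at 25.1% ± 7.56 (SD, n = 3), against 36.6% to 40.5% in the other groups. Maf RNA was higher in every library labelled Cre+ than in every library labelled Cre-, which goes against the genotype labels. It lay between 0 and 2.03 CPM (counts scaled by the effective library size) in the 9 libraries labelled Cre-, between 5.03 and 22.8 CPM in Cre+ TfhA, between 196 and 260 CPM in Cre+ Tfh1 and between 319 and 397 CPM in Cre+ Tfh5. In TfhA the difference between the labels did not pass the test (log2 7.01 ± 1.2, adjusted p = 0.11, edgeR). The 3′ reads may lie outside the deleted part, and Maf should be intact in Cre- libraries. The cause of these levels was not tested. Whether the genotype labels are exchanged was not tested. If they were, every Cre+ minus Cre- difference below would have the opposite sign with respect to Maf status, and "Cre-" and "Cre+" always mean the libraries labelled so. Summed CPM of 8 CD4 T cell markers were 1797 to 3738, with all 8 above 0 in each group, and those of CD8 T, B, myeloid and erythroid markers never exceeded 10.4. NK and innate lymphoid markers summed to 9.82 to 52.8 CPM, with Ncr1 at 0 in every group. In bulk RNA, fewer cells of a type and less RNA per cell cannot be told apart.

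Promoters are shown for 3 of the subunit genes whose RNA differed between groups below, because their windows hold motifs of factors known to drive nuclear respiratory genes. The windows are from RefSeq on GRCm38.p6, run from 250 bases before to 50 bases after the start site, and are written 5′ to 3′ on the strand of the gene. Capitals mark the motif letters. Atp5k lies at chr5:108434350-108434649 on the minus strand and holds an NRF1 motif and an ETS motif, Uqcrh at chr4:116075021-116075320 on the minus strand holds an ETS motif, and Ndufc1 at chr3:51408906-51409205 on the minus strand holds a YY1 motif.
Atp5k: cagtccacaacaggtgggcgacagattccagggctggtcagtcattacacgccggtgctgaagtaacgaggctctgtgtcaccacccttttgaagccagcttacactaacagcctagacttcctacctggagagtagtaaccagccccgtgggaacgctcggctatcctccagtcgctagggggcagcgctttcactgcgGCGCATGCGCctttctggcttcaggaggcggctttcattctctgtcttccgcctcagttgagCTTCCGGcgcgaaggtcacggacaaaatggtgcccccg
Uqcrh: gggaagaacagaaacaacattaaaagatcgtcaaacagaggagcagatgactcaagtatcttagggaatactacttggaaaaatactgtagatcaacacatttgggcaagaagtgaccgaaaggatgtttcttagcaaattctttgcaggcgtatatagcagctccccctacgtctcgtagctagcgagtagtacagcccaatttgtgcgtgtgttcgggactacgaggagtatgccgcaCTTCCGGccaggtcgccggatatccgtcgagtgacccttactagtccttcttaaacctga
Ndufc1: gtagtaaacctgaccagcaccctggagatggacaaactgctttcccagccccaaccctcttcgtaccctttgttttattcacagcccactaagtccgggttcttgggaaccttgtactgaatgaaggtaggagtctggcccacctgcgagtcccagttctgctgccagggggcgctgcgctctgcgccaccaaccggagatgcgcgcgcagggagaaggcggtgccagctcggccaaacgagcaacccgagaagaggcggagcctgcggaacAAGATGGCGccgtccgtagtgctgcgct
The 6 motifs searched on both strands were NRF1 (GCGCANGCG), ETS and GABP (CCGGAAG), YY1 (AAGATGGCG), ERR (TCAAGGTCA), CREB (TGACGTCA) and the E-box of Myc (CACGTG). The table matched 69 of the 86 genes, with 74 windows, and no window had overlapping matches of different motifs. NRF1 letters stood in 28.4% of the 74 windows against 6.25% of all 32851 windows, ETS letters in 23.0% against 8.86%, YY1 letters in 9.46% against 1.4%, CREB letters in 5.41% against 1.79%, ERR letters in 2.7% against 0.42% and the E-box in 9.46% against 7.15%. At least 1 of the 6 motifs was present in 60.8% of the subunit windows and in 21.9% of all windows. Of the 16 genes that were higher in Tfh5 than in TfhA libraries labelled Cre- (below), 14 had a window, and 9 of these 14 held a motif, against 34 of the other 55 genes. The windows of Ndufc2, Ndufb11, Cox7a1, Cox7a2l and Cox7b held none of these letters. A match of letters is a description and not a binding site.

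Most subunit genes were well covered, while a few were listed at or near 0. CPM here are counts per identifier that are not divided by length, so levels are compared between groups and not between genes. The gene with the most counts was Ndufa2 in complex I (44136 over the 18 libraries), Sdhb in complex II (37882), Uqcrh in complex III (89589), Cox6c in complex IV (96372) and Atp5g3 in complex V (67905). A core panel of 22 genes, of which 20 were tested, holds catalytic and redox-active subunits together with other structural subunits of the complexes. In complex I, group means were 27.0 to 46.8 CPM for Ndufs1, 28.9 to 48.3 CPM for Ndufs3, 55.3 to 91.3 CPM for Ndufs7 and 54.1 to 71.9 CPM for Ndufs8, all parts of the peripheral arm. The NADH-binding subunit Ndufv1 had group means of 76.5 to 120.01 CPM and the iron-sulfur subunit Ndufv2 of 115 to 202 CPM. In complex II the flavoprotein Sdha had group means of 53.2 to 114 CPM, the iron-sulfur subunit Sdhb of 214 to 376 CPM and the membrane anchor Sdhc of 42.6 to 75.5 CPM. In complex III the core proteins Uqcrc1 and Uqcrc2 had group means of 75.1 to 113 CPM and 152 to 181 CPM, and the Rieske protein Uqcrfs1 of 88.1 to 146 CPM. In complex IV the largest nuclear subunit Cox4i1 had group means of 277 to 517 CPM, Cox5a of 178 to 273 CPM and Cox5b of 117 to 126 CPM. In ATP synthase the alpha subunit Atp5a1 had group means of 359 to 437 CPM, the catalytic beta subunit Atp5b of 319 to 581 CPM, the gamma subunit Atp5c1 of 175 to 277 CPM and the epsilon subunit Atp5e of 311 to 487 CPM. None of these genes was at 0 in any group.

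**Figure D1:**
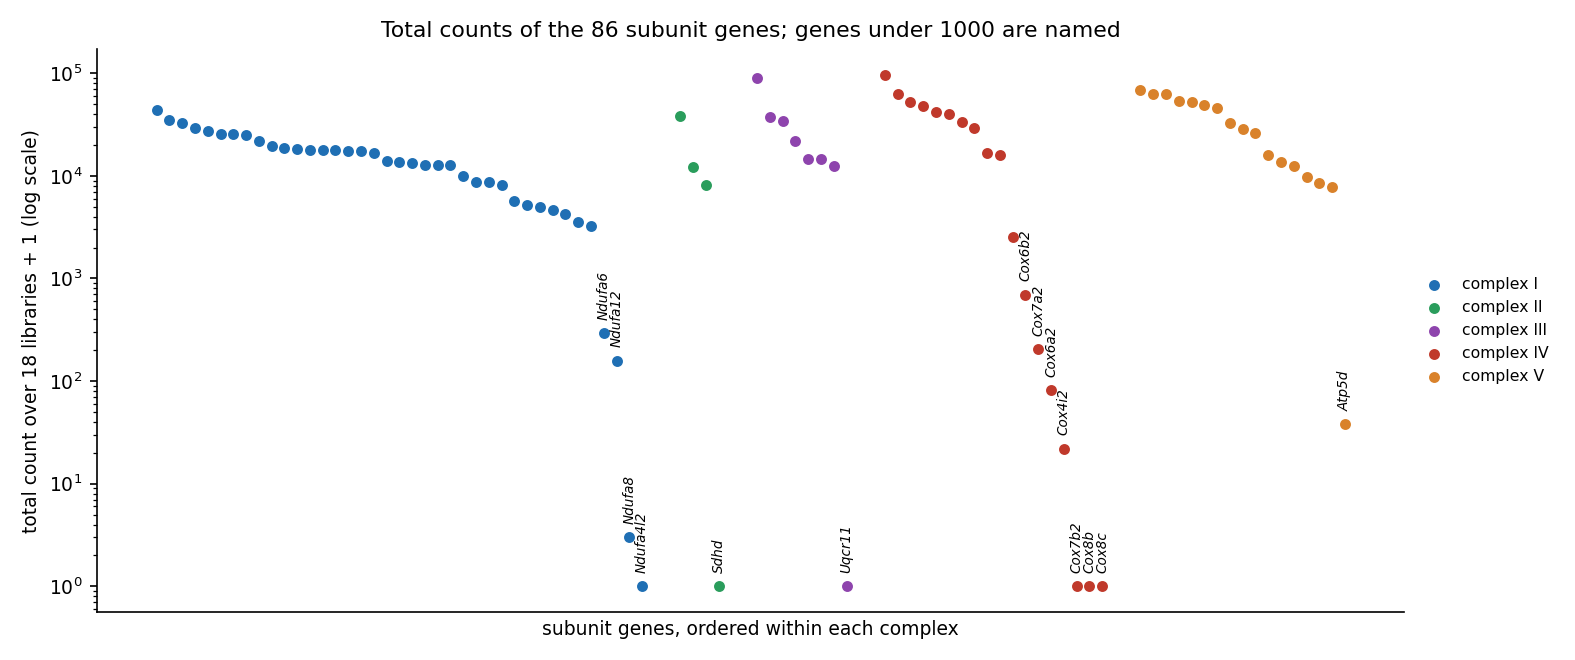
Total count of each of the 86 subunit genes over the 18 libraries, plus 1, on a log axis, ordered within each complex; genes under 1000 counts are named. Ndufa4l2, Sdhd, Uqcr11, Cox7b2, Cox8b and Cox8c are at 0, and Ndufa8, Cox4i2 and Atp5d at 2, 21 and 37 counts.

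Among subunits with tissue isoforms, the ubiquitous form held most of the counts, except that for subunit 7a it was listed near 0. Cox4i1 is the general form of subunit 4, and its paralog Cox4i2, known from lung, totalled 21 counts, in 3 libraries. Cox6a1 had group means of 300.2 to 431 CPM, whereas the heart and muscle form Cox6a2 was at 0 in 13 libraries and reached 5.18 CPM in 1 Cre- Tfh1 library. Cox6b1 had group means of 248 to 352 CPM and its testis form Cox6b2 of 2.73 to 11.8 CPM. Cox8a had group means of 201 to 297 CPM, and the muscle form Cox8b and the testis form Cox8c were listed at 0 in all 18 libraries, as was Cox7b2, the testis counterpart of Cox7b. Atp5g1, Atp5g2 and Atp5g3, which encode the same mature c-ring protein, had group means of 49.5 to 64.2 CPM, 84.3 to 139 CPM and 414 to 637 CPM. For subunit 7a the general form Cox7a2 had group means of 0.438 to 2.73 CPM and the heart and muscle form Cox7a1 of 8.12 to 35.8 CPM, while the related Cox7a2l, a factor in supercomplex formation, had 257 to 647 CPM. Cox7a2 totalled 202 counts over the 18 libraries, as low as some required subunits described next. The cause of this low value was not tested, so no use of Cox7a1 in place of Cox7a2 is read from it.

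Several subunits that the complexes need in every cell were also listed at or near 0. Sdhd, the second membrane anchor of complex II, and Uqcr11 of complex III were at 0 in all 18 libraries, Ndufa8 of complex I had 2 counts and Atp5d, the delta subunit of the central stalk of ATP synthase, 37 counts in all. Ndufa12 and Ndufa6 had 156 and 290.0 counts over the 18 libraries. In the longest coding GENCODE transcripts the last 300 bases of these 6 genes and of Cox7a2 overlap no other gene. All of the last 300 bases of Uqcrc2 overlap Pdzd9 on the opposite strand, and Uqcrc2 had 21938 counts. The annotation and the use of strand behind the deposited counts are not known, so no conclusion is drawn from these overlaps. A value of 0 is given as a listing only, and its cause was not tested. The 9 genes that were not tested are Ndufa4l2, Ndufa8, Sdhd, Uqcr11, Cox4i2, Cox7b2, Cox8b, Cox8c and Atp5d. The rule would also take Ndufb1, for which the tables used here hold no row.

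Fractional counts were common among these genes but small. Of the 80 genes above 0, 76 had a value that was not whole in at least 1 library, which is 95.0%, against 81.9% of all identifiers above 0. Ndufb4, Cox6c, Cox7a2l, Atp5c1, Atp5g2, Atp5j2, Atp5l and Atp5md were fractional in all 18 libraries. The parts after the decimal point made up 0.016% to 0.035% of the subunit counts of a library, and this is a lower bound on shared reads, since a read divided among genes can also add up to a whole number. Ndufb4 and its close copies Ndufb4b and Ndufb4c were fractional in 18, 17 and 17 libraries and totalled 5678, 4221 and 3534 counts, so their values are uncertain. Another 13 genes have a pseudogene named in the tables, among them Uqcrh with 2, Atp5k with 4, Atp5l with 2 and Cox6c with 1, and reads could be split between these copies. Truncating instead of rounding the counts changed no count of calls.

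In libraries labelled Cre-, 16 subunit genes were higher in Tfh5 than in TfhA cells, on the scale of TMM, which sets the library sizes by the bulk of the genes. The summed level of the 86 genes was 15869 ± 1066 CPM in Tfh5 and 11864 ± 400.2 CPM in TfhA (SD, n = 3), with no overlap between the libraries. As a share of all counts the order was the other way, at 1.41% ± 0.014 in Tfh5 and 1.55% ± 0.14 in TfhA, and with the abundant identifier pair left out of the total it was 2.37% ± 0.14 and 2.07% ± 0.055. Of the 77 tested genes, 16 were higher and 0 lower (edgeR quasi-likelihood test, Benjamini-Hochberg adjusted p under 0.05), which is 5 of 37 in complex I, 1 of 3 in complex II, 1 of 7 in complex III, 3 of 14 in complex IV and 6 of 16 in complex V. Over all 11735 genes tested, 3.17% were called higher and 1.91% lower. The median log2 difference was 0.34 over the 77 genes and -0.09 over all genes. At unadjusted p under 0.05, 28 of the 77 were higher and 3 lower. Counts at unadjusted p are given here and below without the share of all genes, so no excess is read from them. Some markers moved with this contrast. Cd4 was lower in Tfh5, at 57.4 CPM against 160 CPM on average (log2 -1.48 ± 0.23, adjusted p = 2.84e-05, edgeR), while the sum of the 8 CD4 T markers was 1978 to 2348 CPM in Tfh5 and 1899 to 1941 CPM in TfhA. The 4 NK and innate lymphoid markers summed to 24.4 to 31.9 CPM in Tfh5, with 1 above 0, and to 9.82 to 22.1 CPM in TfhA, with 2 above 0, and Ncr1 and Klrb1c were at 0 in both. The 7 myeloid and dendritic markers summed to 4.54 to 10.4 CPM in Tfh5, with 3 above 0, and to 0 to 2.97 CPM in TfhA, with 2 above 0, and Lyz2, Adgre1 and Flt3 were at 0 in both. Their part in the result was not tested.

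The smallest adjusted p values of the 77 genes belonged to a pair of ATP synthase subunits, Atp5mpl and Atp5k. Atp5mpl, which encodes a short proteolipid of the membrane part (chromosome 12, 111961374 to 111967009), was at 183, 218 and 149 CPM in the Cre- TfhA libraries and at 529, 374 and 579 CPM in Cre- Tfh5. Every Tfh5 library lay above every TfhA library, and the log2 difference was 1.43 ± 0.22 (SE, adjusted p = 2.1e-05, edgeR). Atp5k, subunit e, was at 239, 233 and 247 CPM in TfhA and at 682, 480 and 554 CPM in Tfh5. The groups did not overlap, with a log2 difference of 1.25 ± 0.19 (adjusted p = 2.36e-05). Atp5l, subunit g, which pairs with subunit e where ATP synthase forms dimers, rose from 88.9 to 179 CPM on average, a log2 difference of 1.01 ± 0.25 (adjusted p = 0.0112). Smaller differences were called for Atp5h of the peripheral stalk, for Atp5e of the central stalk (log2 0.65) and for Atp5j2, subunit f (log2 0.65). The groups overlapped for Atp5h, whose Tfh5 library at 129 CPM lay below the highest TfhA library at 134 CPM. Other membrane subunits had lower means in Tfh5 without passing the test, with Atp5md at 65.99 CPM in TfhA and 29.2 CPM in Tfh5 (adjusted p = 0.486) and the c-ring gene Atp5g3 at 637 and 470.0 CPM (adjusted p = 0.234). The alpha and beta subunits Atp5a1 and Atp5b were not among the called genes, with group means of 428.5 and 510.3 CPM in TfhA and of 362 and 464 CPM in Tfh5.

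**Figure D2:**
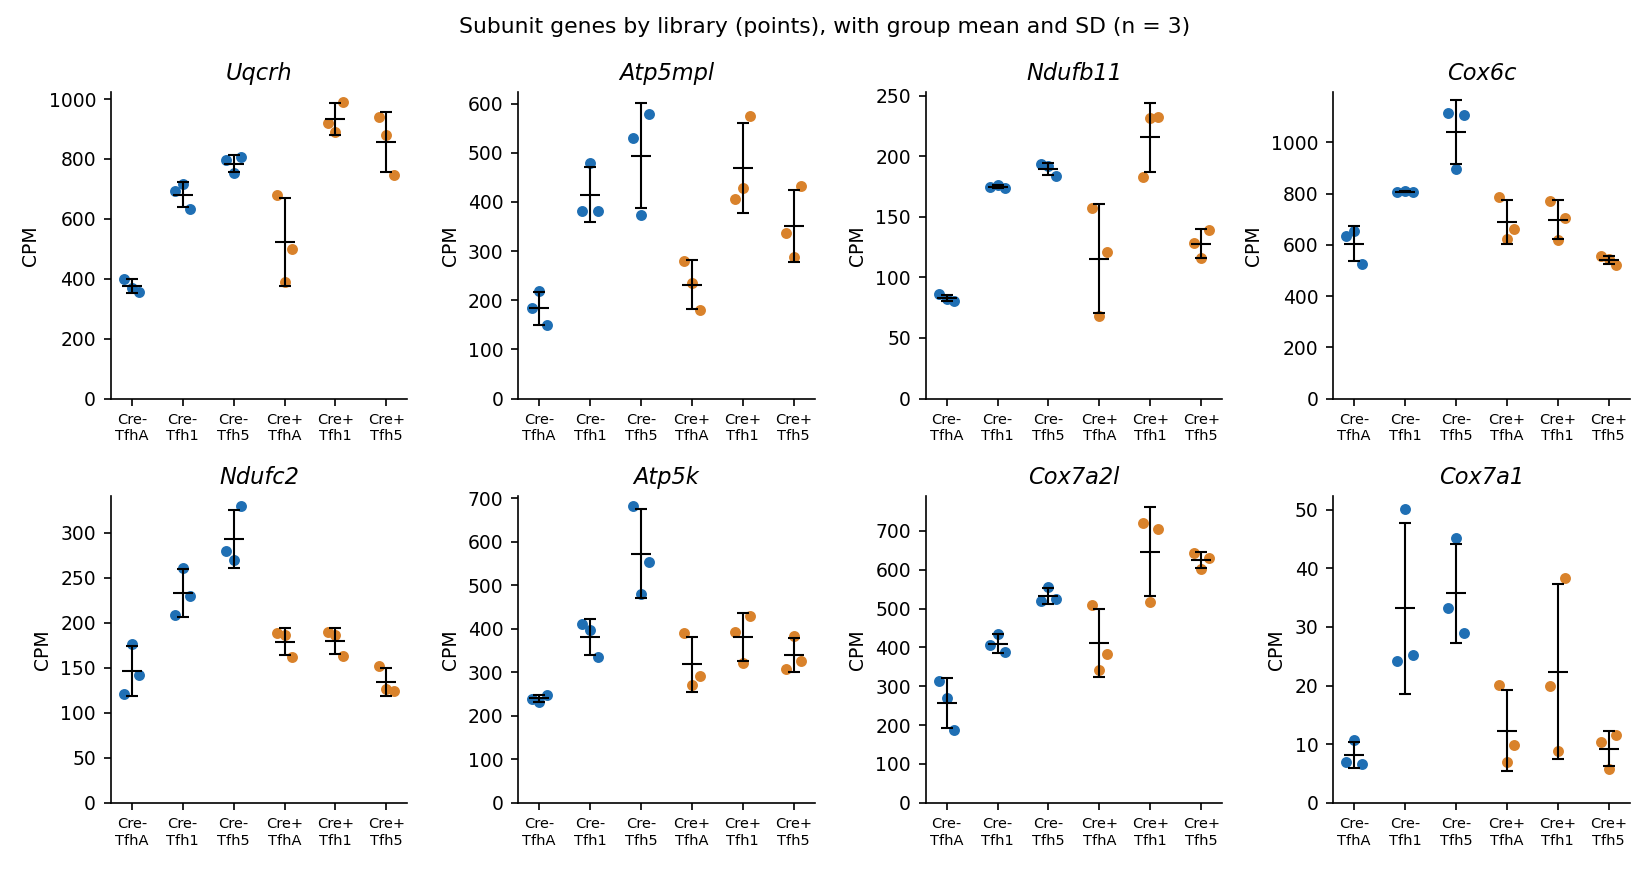
CPM of 8 subunit genes in each library (points, Cre- blue, Cre+ orange) with the group mean and SD (n = 3). In Cre- libraries all 8 genes are higher in every Tfh5 than in every TfhA library, and in the Tfh5 treatment Cox6c, Ndufc2, Atp5k and Cox7a1 are lower in every Cre+ than in every Cre- library. These genes are among those called in the same contrasts, so their separation is no further support for the calls.

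The called genes of the electron transport complexes were accessory subunits, which carry no redox centre, except for Ndufv2 and Sdhb. Accessory subunits also make up most of the tested genes of these complexes, so no preference for them is read from the calls. Uqcrh, the hinge protein of complex III that contacts cytochrome c1, was at 400.4, 369 and 355 CPM in Cre- TfhA and at 795, 752 and 805 CPM in Cre- Tfh5. The lowest Tfh5 library was far above the highest TfhA library, and the log2 difference was 1.06 ± 0.18 (adjusted p = 0.000102, edgeR). Ndufb11, a membrane-arm accessory subunit of complex I encoded on the X chromosome, was at 85.9, 81.8 and 80.7 CPM in TfhA and at 193, 192 and 183 CPM in Tfh5. The spread within each group was small, and the log2 difference was 1.19 ± 0.23 (adjusted p = 0.000897). Ndufc2 (chromosome 7, 97400003 to 97407800), another membrane-arm accessory subunit, was at 121, 176 and 142 CPM in TfhA and at 279, 269.6 and 329.7 CPM in Tfh5, a log2 difference of 1.001 ± 0.20 (adjusted p = 0.00124). Its partner Ndufc1 rose by a log2 difference of 0.94 ± 0.24 (adjusted p = 0.0126), although its Tfh5 library 4 at 142 CPM lay close to the highest TfhA library at 129.7 CPM. Ndufb4 (log2 1.47, uncertain for its copies), Ndufv2 (log2 0.81) and the complex II subunit Sdhb (log2 0.81) were also called. In complex IV, Cox7a2l was at 314, 269 and 187 CPM in TfhA and at 519, 555 and 524 CPM in Tfh5, a log2 difference of 1.05 ± 0.19 (adjusted p = 0.000359). Cox6c, a supernumerary subunit (chromosome 15, 35931976 to 35938246), was at 633, 653 and 525 CPM in TfhA and at 1115, 896 and 1108 CPM in Tfh5, a log2 difference of 0.78 ± 0.17 (adjusted p = 0.0019). Cox7a1, at low counts, went from 6.69 to 10.6 CPM in TfhA to 28.9 to 45.2 CPM in Tfh5, the largest difference among the called subunit genes of this contrast at log2 2.14 ± 0.57 (adjusted p = 0.0187).

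The size of these differences depends on how the libraries are scaled. With plain library sizes in place of TMM the median of all genes in Cre- Tfh5 minus TfhA moved from -0.09 to -0.64, that of the 77 subunit genes turned from 0.34 to -0.21, and 2 of them were called higher (Atp5mpl and Atp5k) and 5 lower (Sdhc, Atp5b, Atp5a1, Cox8a and Atp5g3), while the share of higher calls among all genes fell from 62.4% to 15.0%. The distance between the subunit median and the all-gene median was 0.44 with TMM and 0.43 with plain sizes. A change of library sizes shifts all genes of a contrast by nearly the same amount. This distance could therefore hardly move, and it is no check of the calls. With plain sizes that leave out the abundant identifier pair, 8 subunit genes were higher and 2 lower, with a median of 0.12. The count of called genes also rests on single libraries. It fell from 16 to 7 without Cre- TfhA replicate 5, to 9 without Cre- Tfh5 replicate 5 and to 10 without Cre- TfhA replicate 2. Atp5mpl, Atp5k, Uqcrh, Cox7a2l, Ndufb11, Ndufc2 and Cox6c kept their calls with each library left out. The other 9 all lost theirs without Cre- TfhA replicate 5, and their largest adjusted p values over 15 alternatives ran from 0.109 for Cox7a1 to 0.859 for Atp5e and 0.885 for Atp5j2, these last with plain library sizes.

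In Cre- libraries short transcripts had higher median log2 differences against TfhA than long ones. In Cre- Tfh5 minus TfhA the median log2 difference was 0.41 over 43 subunit genes with transcripts under 1000 bases and 0.22 over 32 longer ones, and over the other genes it was 0.25 for 545 short and -0.14 for 10038 long ones. The 16 called subunit genes had a median transcript length of 710.5 bases against 918 for those not called. Lengths from the longest coding transcript were at hand for 90.8% of the tested genes and 75 of the 77 subunit genes. In Cre- Tfh1 minus TfhA these medians were 0.45 and 0.30 for subunit genes and 0.23 and -0.09 for other genes. For Cre+ minus Cre- in Tfh5 they were -0.37 and -0.19, and -0.17 and 0.0. The 6 genes called there had a median of 710.5 bases against 908. In Cre+ Tfh1 minus TfhA they were 0.07 and 0.12, and 0.11 and -0.08. In Cre+ Tfh5 minus TfhA the 3 called genes were longer, at 1623 against 870 bases. The part of length in the differences was not tested.

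**Figure D3:**
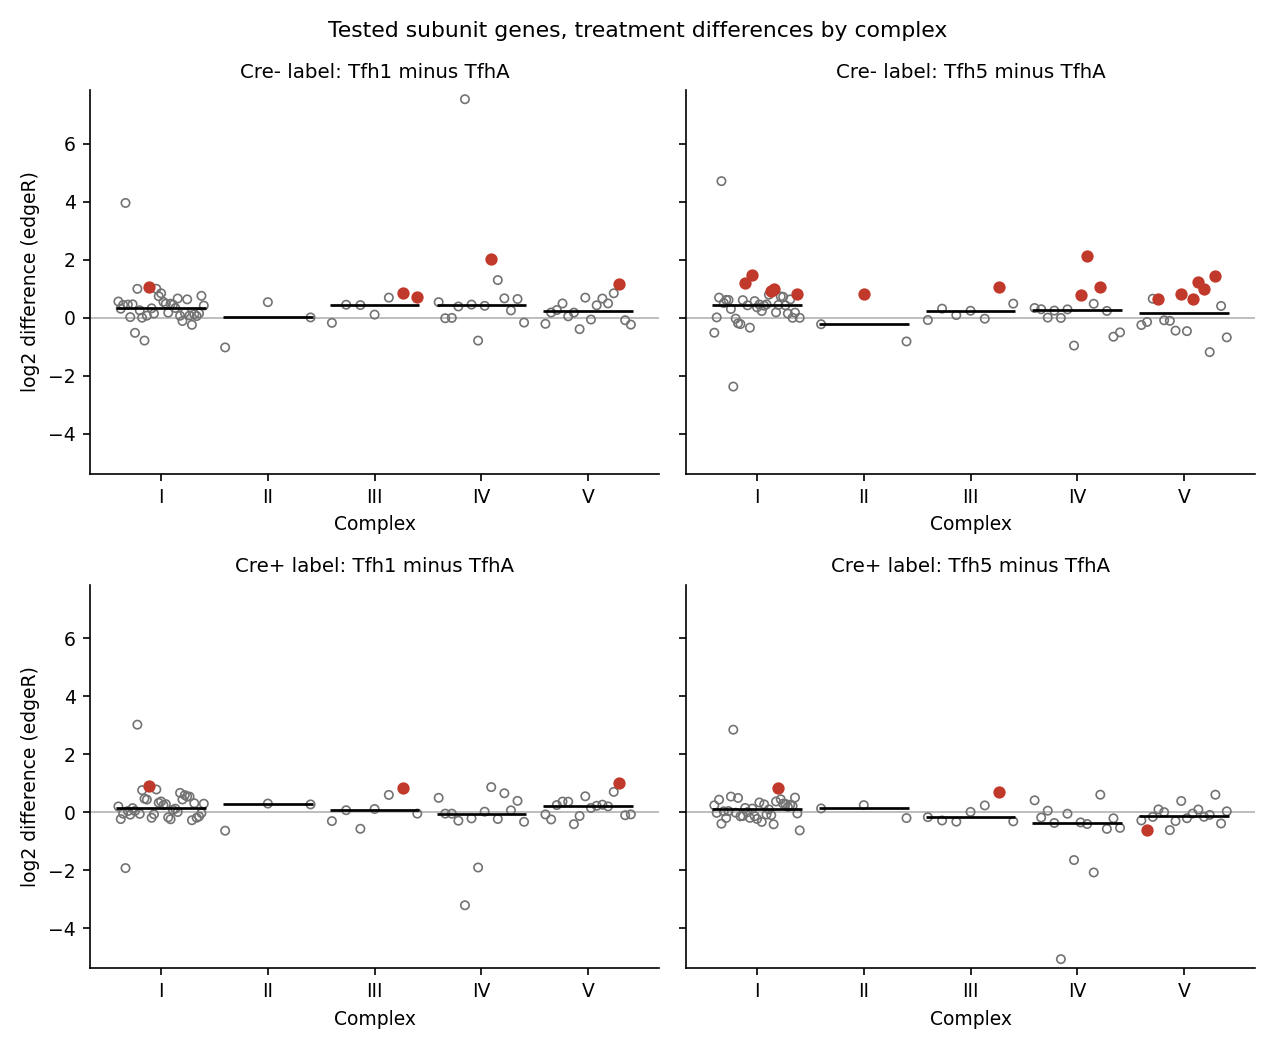
log2 differences (edgeR) of the 77 tested subunit genes by complex for Tfh1 minus TfhA and Tfh5 minus TfhA in each genotype label; red points passed an adjusted p of 0.05, open points did not, and bars are medians. 16 genes are called higher in Tfh5 minus TfhA of Cre- libraries, and 2 higher and 1 lower in Cre+ libraries; under plain library sizes the Cre- count becomes 2 higher and 5 lower, and the outlying open points are the low-count genes Cox6a2, Cox6b2, Cox7a2, Ndufa6 and Ndufa12, whose fitted values depend on the prior count.

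In libraries labelled Cre-, 5 subunit genes were higher in Tfh1 than in TfhA cells. The 86 genes summed to 14964 ± 823 CPM in Tfh1, above all TfhA libraries. Of 77 tested genes, 5 were higher and 0 lower, against 1.5% higher and 0.733% lower over all genes, and the medians were 0.42 for the subunit genes and -0.045 for all genes. On the TMM scale the log2 difference was above 0 for 63 of the 77 genes here. It was above 0 for 55 in Tfh5 minus TfhA, which shares the TfhA libraries. With plain library sizes these counts were 37 and 27. With DESeq2 and with the compared groups alone 11 genes were called here. The share of all genes is not given beside these counts, so no excess is read from them. The NK and innate lymphoid marker sum was 25.1 to 52.8 CPM in Tfh1 against 9.82 to 22.1 CPM in TfhA, with Ncr1 and Klrb1c at 0 in both, and its part was not tested. Atp5mpl was at 382, 479 and 382 CPM in Tfh1, all above the TfhA libraries (log2 difference 1.18 ± 0.21, adjusted p = 0.000836, edgeR). Uqcrh was at 694, 715 and 634 CPM, and Ndufb11 at 174, 176 and 174 CPM. These levels were 1.82 and 2.11 times those in TfhA, with log2 differences of 0.86 ± 0.18 (adjusted p = 0.00325) and 1.08 ± 0.23 (adjusted p = 0.00562). Uqcrq, the small ubiquinone-binding subunit of complex III, rose from 235 to 387 CPM (log2 0.72 ± 0.19, adjusted p = 0.0338), and Cox7a1 from 8.12 to 33.2 CPM (log2 2.03 ± 0.57, adjusted p = 0.0498). These last genes lost their calls with any 1 of the 6 libraries left out, with adjusted p values up to 0.551 for Uqcrq and 0.343 for Cox7a1 over their 15 alternatives, and the others kept theirs. Without Cre- TfhA replicate 5 or any 1 of the Cre- Tfh1 libraries the count was 3. With plain library sizes the median turned to -0.01 against -0.47 for all genes, with 1 gene higher (Atp5mpl) and 3 lower (Sdha, Atp5g3 and Ndufa5).

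Tfh5 and Tfh1 cells labelled Cre- differed in no subunit gene by the edgeR test, where 0.554% of all genes were called. At unadjusted p under 0.05, 8 of the 77 were higher and 5 lower in Tfh5, DESeq2 called 2 and limma-voom 0. The smallest adjusted p values belonged to Ndufa5 (log2 0.82 ± 0.24, adjusted p = 0.109), Atp5k (0.59 ± 0.19, adjusted p = 0.179) and Cox7c (-1.30 ± 0.44, adjusted p = 0.247).

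Within libraries labelled Cre+, few subunit genes differed between treatments. The 86 genes summed to 13119 ± 634 CPM in TfhA, 14616 ± 1094 CPM in Tfh1 and 13111 ± 509 CPM in Tfh5. For Tfh1 minus TfhA, 3 of 77 genes were higher and 0 lower, against 1.58% and 0.997% of all genes, with a median of 0.11 against -0.06. The 3 were Uqcrh, Atp5mpl and Ndufb11. Uqcrh was at 681, 389 and 499.7 CPM in Cre+ TfhA and at 921, 888 and 991 CPM in Cre+ Tfh1, a log2 difference of 0.84 ± 0.18 (adjusted p = 0.00408, edgeR). Atp5mpl was at 279.8, 235 and 179.8 CPM and at 406, 428 and 574 CPM, a log2 difference of 1.02 ± 0.21 (adjusted p = 0.00383). Ndufb11 was at 157, 68.1 and 121 CPM and at 183, 232 and 232 CPM, a log2 difference of 0.90 ± 0.23 (adjusted p = 0.0243). Cre+ Tfh1 lay above Cre+ TfhA in all libraries for each of the 3 genes. None of the 3 calls held with every library left out: Uqcrh lost its call without Cre+ TfhA replicate 3 (adjusted p = 0.0742), Atp5mpl without replicate 6 of either group (0.0527 and 0.0505) and Ndufb11 in 4 of 6 cases, up to an adjusted p of 0.252 without Cre+ TfhA replicate 3. The count was 1 without Cre+ TfhA replicate 3 or 6 or Cre+ Tfh1 replicate 6, and with plain library sizes the median turned to -0.10 against -0.24 for all genes. Marker sums moved with this contrast too, at 3286 to 3738 CPM in Tfh1 and 1797 to 2347 CPM in TfhA for CD4 T cells and at 25.9 to 42.0 and 12.4 to 19.5 CPM for NK and innate lymphoid cells, with Ncr1 and Eomes at 0 in both, and their part was not tested.

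For Tfh5 minus TfhA in Cre+ libraries, 2 of 77 genes were higher and 1 lower, against 2.39% and 3.0% of all genes, with medians of -0.04 and -0.05. Uqcrh was at 941, 880.0 and 745 CPM in Cre+ Tfh5, above all 3 TfhA libraries, with a log2 difference of 0.71 ± 0.18 (adjusted p = 0.0099, edgeR). Atp5b, the catalytic subunit of ATP synthase, was at 457, 478 and 518 CPM in TfhA and lower, at 320.3, 336 and 301 CPM, in Tfh5 (log2 -0.60 ± 0.18, adjusted p = 0.0414). All 3 calls were lost without Cre+ TfhA replicate 3 or replicate 6, and the largest adjusted p values over 15 alternatives were 0.133 for Uqcrh and 0.156 for Atp5b. The count was 1 without Cre+ Tfh5 replicate 1 or 6. The CD4 T marker sum was 2957 to 3487 CPM in Cre+ Tfh5 and 1797 to 2347 CPM in Cre+ TfhA, and its part was not tested. For Tfh5 minus Tfh1, 0 genes were higher and 1 was lower, against 0.435% and 1.32% of all genes. Ndufv3, an accessory subunit beside the NADH site, fell from 273, 314 and 400.2 CPM to 142, 222 and 157 CPM (log2 -0.92 ± 0.22, adjusted p = 0.0143), a call that was lost without Cre+ Tfh1 replicate 6 (adjusted p = 0.135) and without Cre+ Tfh5 replicate 1 or 6.

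The genotype labels were compared within each treatment to ask how Maf status relates to these genes. Since Maf RNA goes against the labels, the signs are given for the labels only and would turn with respect to Maf status if the labels were exchanged. In TfhA, 0 of 77 subunit genes and 0.0% of all genes were called (edgeR). At unadjusted p under 0.05, 6 subunit genes were higher and 2 lower in Cre+, DESeq2 called 1 (Cox7a2l) and limma-voom 0. Cox7a2l had the smallest adjusted p, with 257 CPM in Cre- and 411.5 CPM in Cre+ on average (log2 0.68 ± 0.19, adjusted p = 0.516), followed by Ndufa5 (-0.67 ± 0.24, adjusted p = 0.741) and Uqcrh (0.48 ± 0.18, adjusted p = 0.758). In Tfh1, 0 of 77 were called, against 0.852% of all genes. Here 4 were higher and 4 lower at unadjusted p under 0.05, DESeq2 called 2 (Cox7a2l and Uqcrq) and limma-voom 0. The smallest adjusted p values were those of Cox7a2l (log2 0.66 ± 0.19, adjusted p = 0.107), Uqcrq (-0.60 ± 0.19, adjusted p = 0.164) and Atp5b (-0.51 ± 0.18, adjusted p = 0.253). The CD4 T marker sum was 3286 to 3738 CPM in Cre+ Tfh1 and 1849 to 2264 CPM in Cre- Tfh1, and its part was not tested.

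In Tfh5, libraries labelled Cre+, which held the higher Maf RNA, had less RNA of 6 subunit genes, and none was higher. Over all genes 2.05% were called lower and 1.19% higher, and the median log2 difference was -0.24 over the 77 subunit genes and 0 over all genes. Cox6c was at 1115, 896 and 1108 CPM in Cre- and at 555, 544 and 523 CPM in Cre+. Each Cre+ library was far below each Cre- library (log2 difference -0.94 ± 0.17, adjusted p = 0.000408, edgeR). Ndufc2 was at 279, 269.6 and 329.7 CPM in Cre- and at 152, 126 and 124 CPM in Cre+ (log2 -1.13 ± 0.20, adjusted p = 0.000542). Its partner Ndufc1 was at 245, 142 and 316 CPM in Cre- and at 109.99, 100.2 and 105 CPM in Cre+ (log2 -1.16 ± 0.24, adjusted p = 0.00266). The 3 Cre+ libraries were close together for both genes. Cox7b, a supernumerary subunit of complex IV, was at 228, 336 and 493 CPM in Cre- and at 169, 195 and 219 CPM in Cre+ (log2 -0.86 ± 0.21, adjusted p = 0.0147). Atp5k was at 682, 480 and 554 CPM in Cre- and at 308, 382 and 326 CPM in Cre+ (log2 -0.76 ± 0.19, adjusted p = 0.0169). Cox7a1 was at 33.2, 45.2 and 28.9 CPM in Cre- and at 10.4, 5.84 and 11.5 CPM in Cre+ (log2 -1.95 ± 0.57, adjusted p = 0.0494).

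**Figure D4:**
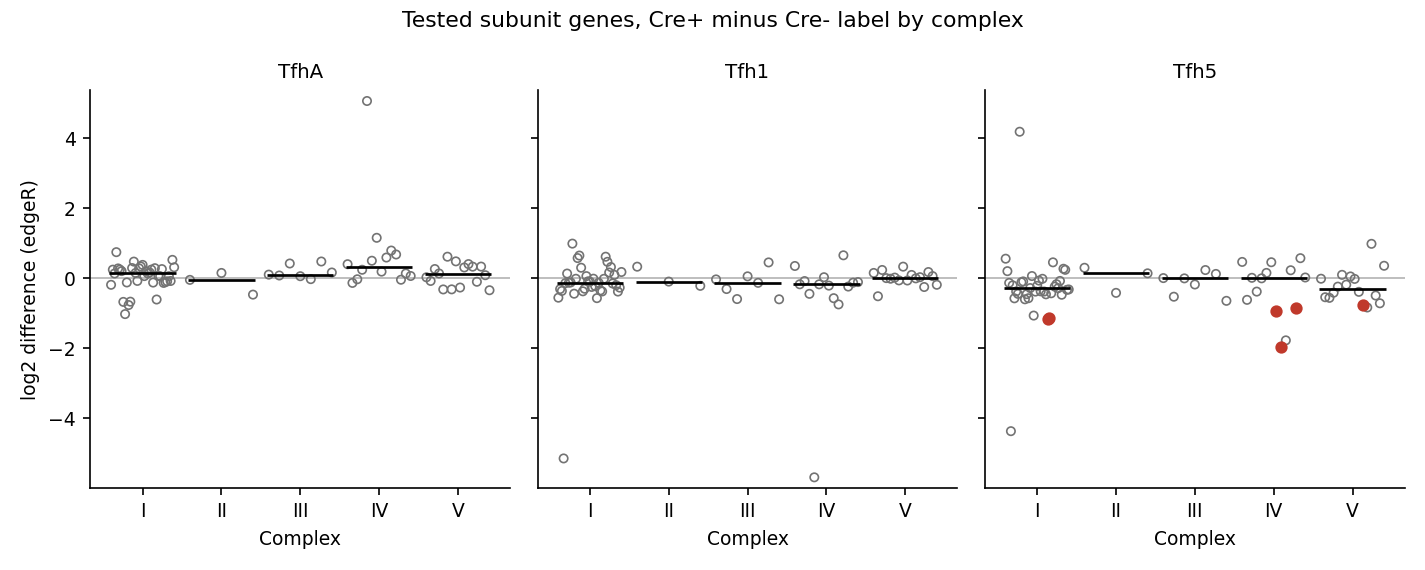
log2 differences (edgeR) of the 77 tested subunit genes by complex for libraries labelled Cre+ minus those labelled Cre-, in each treatment; red points passed an adjusted p of 0.05, open points did not, and bars are medians. No gene passed in TfhA or Tfh1, and 6 genes passed in Tfh5, all lower; the outlying open points are the low-count genes Cox6a2, Cox7a2, Ndufa6 and Ndufa12, whose fitted values depend on the prior count.

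Cox6c and Ndufc2 kept this call in all 14 alternatives. Without Cre- Tfh5 replicate 5 the count fell to 3, as Ndufc1 (adjusted p = 0.0514), Cox7b (0.254) and Cox7a1 (0.063) lost their calls, and Cox7b, Atp5k and Cox7a1 lost theirs without Cre+ Tfh5 replicate 1. Atp5k also lost its call without Cre- Tfh5 replicate 2 (0.0941) or Cre+ Tfh5 replicate 6 (0.0733), and Cox7a1 without any 1 of the 6 libraries, with an adjusted p of up to 0.181. With the compared groups fitted alone 2 genes were called, and with plain library sizes 3. The CD4 T marker sum moved with the labels, at 1978 to 2348 CPM in Cre- Tfh5 and 2957 to 3487 CPM in Cre+ Tfh5, as did Cd4 itself (log2 1.17 ± 0.23, adjusted p = 0.00129, edgeR), and its part in these differences was not tested. CD8 T, B, myeloid and erythroid sums stayed under 10.4 CPM in both.

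The genotype difference in Tfh5 was tested directly against that in TfhA. Of 77 subunit genes, 3 had a lower genotype difference in Tfh5 and 0 a higher one, against 0.861% and 0.332% of all genes, with medians of -0.43 and -0.01. They were Ndufc2 (log2 -1.42 ± 0.29, adjusted p = 0.00487, edgeR), Cox6c (-1.14 ± 0.23, adjusted p = 0.0061) and Atp5k (-1.16 ± 0.27, adjusted p = 0.0171). In Cre- libraries Ndufc2 averaged 146 CPM in TfhA, 233 CPM in Tfh1 and 293 CPM in Tfh5, and in Cre+ libraries 179, 179.6 and 134 CPM. Cox6c averaged 604, 807 and 1040 CPM in Cre- and 690, 699 and 541 CPM in Cre+. Atp5k averaged 240, 381 and 572 CPM in Cre- and 318, 380.4 and 339 CPM in Cre+. With plain library sizes 0 of the 3 passed (adjusted p = 0.161, 0.214 and 0.275), the subunit median turned to 0.015 against 0.44 for all genes, and the share of higher calls among all genes moved from 27.9% to 64.5%. Atp5k also lost its call without Cre+ TfhA replicate 1 (adjusted p = 0.0895). The genotype differences in Tfh1 and TfhA differed for 0 of 77 genes, against 0.239% of all genes, with 0 higher and 7 lower at unadjusted p under 0.05. Those in Tfh5 and Tfh1 also differed for 0 genes, against 0.0597% of all genes, with 0 higher and 13 lower at unadjusted p under 0.05. DESeq2 and limma-voom called 0 in both. The smallest adjusted p values were 0.494 (Uqcrq) in the former and 0.357 (Cox6c) in the latter.

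The sums by complex are on the TMM scale and are given without a test. In Cre- libraries complex I summed to 3697 ± 163 CPM in TfhA, 4705 ± 422 CPM in Tfh1 and 5110 ± 350.1 CPM in Tfh5 (SD, n = 3), and in Cre+ to 3989 ± 150.4, 4356 ± 293 and 4160 ± 183 CPM. Complex III summed to 1300.5 ± 97.4, 1865 ± 130.2 and 1851 ± 49.9 CPM in Cre- and to 1537 ± 132, 1911 ± 114 and 1761 ± 152 CPM in Cre+. Complex IV summed to 2762 ± 316, 3560 ± 289.5 and 3679 ± 471 CPM in Cre-, and to 3263 ± 158, 3516 ± 240.3 and 3110.5 ± 134 CPM in Cre+. ATP synthase summed to 3708 ± 318, 4394 ± 76 and 4718 ± 395 CPM in Cre- and to 3933 ± 255, 4407 ± 446 and 3637 ± 222 CPM in Cre+. Complex II was the smallest sum, at 396 to 512 CPM in all groups. For every complex the sums in all Cre- Tfh5 libraries lay above those in all Cre- TfhA libraries, although in complex IV the lowest Tfh5 library, at 3154 CPM, was just above the highest TfhA library, at 3124 CPM, and in complex II these were at 453 and 449 CPM. In complex II the mean of Sdhb was higher in Cre- Tfh5 than in Cre- TfhA (376 against 214 CPM), while those of Sdha (92.7 against 108 CPM) and Sdhc (42.6 against 74.6 CPM) were lower and did not pass the test.

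**Figure D5:**
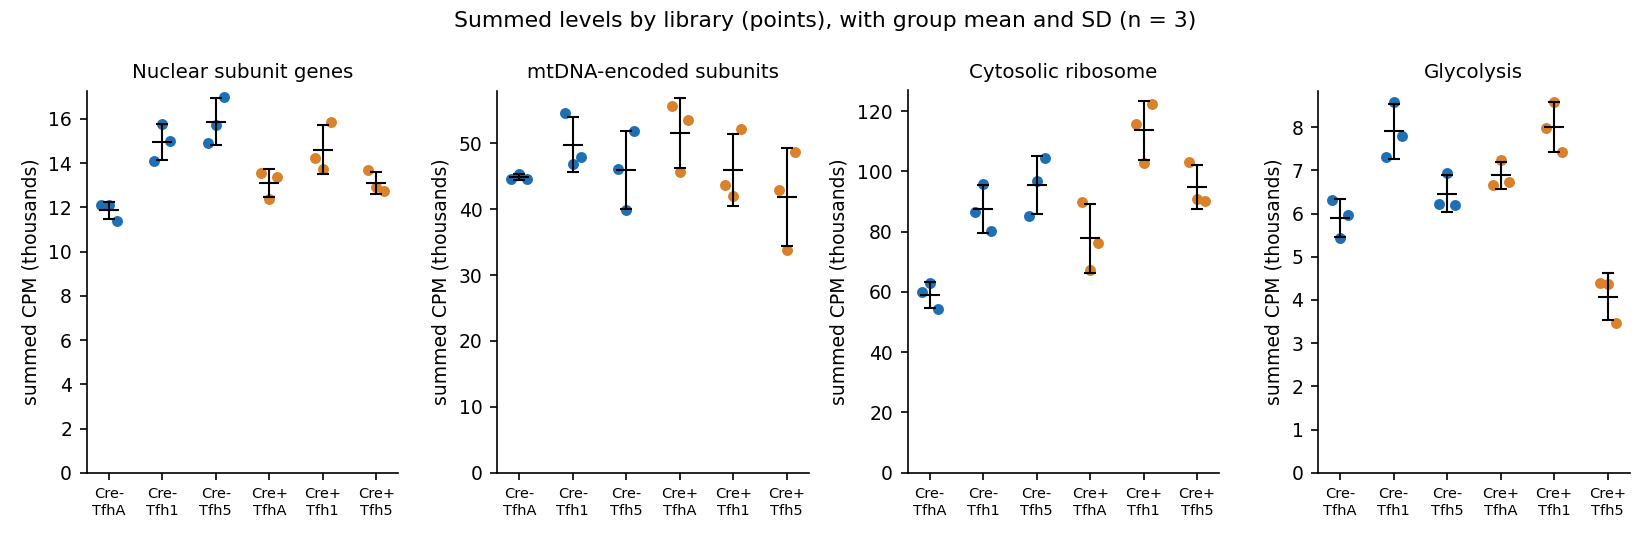
Summed CPM of the nuclear subunit genes, the 13 mtDNA-encoded subunits, the cytosolic ribosomal proteins and the glycolysis genes in each library (points) with group mean and SD (n = 3). Nuclear subunits and ribosomal proteins are lowest in Cre- TfhA on this TMM scale, glycolysis genes are lowest in Cre+ Tfh5, and the mtDNA-encoded sums of Cre- Tfh5 span those of Cre- TfhA.

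Few genes of other mitochondrial lists passed the test. The 13 subunits encoded in mitochondrial DNA summed to 44808 ± 447.5 CPM in Cre- TfhA and 45959 ± 5965 CPM in Cre- Tfh5. In that contrast only mt-Co3 of complex IV passed the test (log2 0.55 ± 0.16, adjusted p = 0.0389, edgeR). In Cre+ Tfh5 minus TfhA, mt-Co1 (-0.54 ± 0.15, adjusted p = 0.0226) and mt-Nd5 (-0.60 ± 0.18, adjusted p = 0.0458) were lower, and mt-Nd2 was lower in Cre+ than in Cre- Tfh5 (-0.74 ± 0.18, adjusted p = 0.0148). Of 45 tested assembly factors, 1 passed in any contrast: Sco1, a copper chaperone for complex IV, was lower than in TfhA in Cre- Tfh5 (-1.97 ± 0.47), in Cre+ Tfh1 (-2.04 ± 0.47) and in Cre+ Tfh5 (-2.73 ± 0.48). Of 20 tested genes of the tricarboxylic acid cycle, the citrate synthase gene Cs (-0.98 ± 0.27, adjusted p = 0.0214) and the fumarase gene Fh1 (-1.95 ± 0.54, adjusted p = 0.0317) were lower in Cre- Tfh5 than in TfhA. Of 75 mitochondrial ribosomal protein genes, 3 were higher in Cre- Tfh5 minus TfhA (Mrpl30, Mrpl14 and Mrpl58), where 3.17% of all genes were, and 2 were lower in Cre+ than in Cre- Tfh5 (Mrpl33 and Mrpl40), where 2.05% of all genes were. In Cre+ Tfh5, Mrps5 was higher and Mrpl33 lower than in either of the other Cre+ groups, and Mrps15 was lower than in TfhA. Of 16 tested regulators of mitochondrial biogenesis, 0 passed the edgeR test in any contrast and 0 or 1 per direction and contrast reached an unadjusted p under 0.05. Cytochrome c itself, Cycs, was lower in Cre+ than in Cre- Tfh5 (-1.01 ± 0.25, adjusted p = 0.0137), as were the channel gene Vdac1 (-0.86 ± 0.21, adjusted p = 0.0133) and the ubiquinone synthesis gene Coq7 (-2.16 ± 0.44, adjusted p = 0.00217), 3 of 18 tested genes of that list. Genes of this list also passed between treatments. In Cre- libraries Vdac1 was higher in Tfh1 than in TfhA (0.80 ± 0.21) and lower in Tfh5 than in Tfh1 (-0.94 ± 0.21). In Cre+ Tfh5 it was lower than in TfhA (-1.12 ± 0.21) and Tfh1 (-1.67 ± 0.21). Coq7 was lower in Cre+ Tfh5 than in TfhA (-1.56 ± 0.43), and Ucp2 was higher there than in Tfh1 (1.31 ± 0.285).

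Larger counts were called among cytosolic ribosomal proteins and, in contrasts with Cre+ Tfh5, among glycolysis genes. Of 82 tested ribosomal protein genes, 39 were higher in Cre- Tfh5 than in TfhA and 18 in Cre- Tfh1. Their medians of 0.59 and 0.53 exceed those of the respiratory subunits. In Cre+ libraries 26 were higher in Tfh1 and 4 in Tfh5. None was lower in these 4 contrasts. Over all genes 3.17%, 1.5%, 1.58% and 2.39% were called higher in the same order. All these counts are on the TMM scale. Of 18 tested glycolysis genes, 7 were lower in Cre+ than in Cre- Tfh5, against 2.05% of all genes. Among them were Hk2 (-1.94 ± 0.22, adjusted p = 1.7e-07), Ldha (-1.11 ± 0.18, adjusted p = 0.000174) and Pgk1 (-0.86 ± 0.17, adjusted p = 0.00133). In Cre+ libraries 9 were lower in Tfh5 than in TfhA and 12 than in Tfh1, against 3.0% and 1.32% of all genes. In Cre- libraries 0 were higher and 1 lower (Hk2) in Tfh5 than in TfhA, against 3.17% and 1.91% of all genes. In Cre- Tfh1, 2 were higher and 0 lower than in TfhA, against 1.5% and 0.733%. In the direct test of the genotype difference in Tfh5 against TfhA, 6 of the 18 were lower. Of the 77 respiratory subunits 3 were, and of all genes 0.861%.

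Ndufa4, a complex IV subunit that the rule leaves out, and AA467197, its paralog, moved in opposite directions between Cre- treatments. In Cre- libraries Ndufa4 averaged 79.8 CPM in TfhA, 33.1 CPM in Tfh1 and 15.6 CPM in Tfh5 while AA467197 averaged 51.9, 272 and 938 CPM, and between labels in Tfh5 Ndufa4 was higher in Cre+ (log2 1.72 ± 0.36, adjusted p = 0.0027, edgeR) and AA467197 lower (-2.47 ± 0.25, adjusted p = 1.9e-08). Within Cre+ libraries AA467197 was higher in Tfh5 than in TfhA (1.04 ± 0.24, adjusted p = 0.00469) and than in Tfh1 (1.06 ± 0.24, adjusted p = 0.0104), whereas Ndufa4 did not pass the test (-0.28 and 0.059).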

How the data were processed

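RNA of sorted mouse CD4 T cells was measured with the Lexogen 3′ mRNA-Seq FWD kit from 50 ng of RNA, per the labels' protocols. The authors deposited expected counts per Entrez identifier, made with STAR 2.7.2b and featureCounts 1.6.4 on mm10, per the submitters' processing notes. How reads were divided between genes, the use of strand and the annotation are not given in the sources used here. Names came from RefSeq on GRCm38.p6, which matched 25275 of 27179 identifiers. The members and lists were chosen with earlier results of these data known.

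The tests assumed whole counts, so the expected counts were rounded. edgeR 4.0.16 in R 4.3.3 was used with TMM, filterByExpr and a robust quasi-likelihood fit of 6 group means over the 18 libraries. This left 11735 genes, and Benjamini-Hochberg adjustment ran over all of them with a threshold of 0.05. Differences are log2 ± SE, the SE worked back from the F statistic. CPM are rounded counts over library size times TMM factor. The code was tested on simulated data. Genes were named by rule: the core and isoform panels, and up to 8 called genes per direction and contrast by adjusted p, or the 3 smallest adjusted p. Up to 3 were named per other list. 1 gene that this rule names is not reported here. Ndufa5, Sdhc, Cox8a and other genes called only under another scaling, the genes at or near 0 and the remaining called genes were named after their values were seen. Alternatives were RLE factors, plain library sizes, no filter, DESeq2 1.42.0, limma-voom (limma 3.58.1), the compared groups alone, truncated counts, a replicate block and each library left out, and, chosen after seeing the data, plain library sizes without the 2 most abundant identifiers.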

Additional observations from a re-analysis of the deposited data

Results flagged for a closer look

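The difference between genotype labels (Cre+ minus Cre-) was itself different between the Tfh5 and TfhA treatments for 3 respiratory subunit genes, by the interaction contrast of the edgeR fit. The value is the genotype difference in Tfh5 minus that in TfhA on the log2 scale: -1.42 for Ndufc2, -1.14 for Cox6c and -1.16 for Atp5k. In Tfh5 every Cre+ library was below every Cre- library for these genes, and with plain library sizes 0 of the 3 passed.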

How the results depend on the processing

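Over all alternatives, 0 called genes changed sign, and 426 of 567 single-gene values kept their call while 141 lost it. The number of called subunit genes changed in these settings. With plain library sizes it was 3 for Cre+ minus Cre- in Tfh5, 7 for Tfh5 minus TfhA in Cre- (2 higher, 5 lower) and 0 for the genotype difference in Tfh5 minus that in TfhA, and without the abundant identifier pair it was 10 for Tfh5 minus TfhA in Cre-. With DESeq2 it was 1, 2 and 2 for Cre+ minus Cre- in TfhA, in Tfh1 and for Tfh5 minus Tfh1 in Cre-, 11 for Tfh1 minus TfhA in Cre-, 2 for Tfh5 minus Tfh1 in Cre+ and 8 for the genotype difference in Tfh5 minus that in TfhA. With limma-voom it was 9 for Tfh1 minus TfhA in Cre-. With no filter it was 3 for Tfh5 minus Tfh1 in Cre-. With the compared groups alone it was 1 for Cre+ minus Cre- in Tfh1, 2 in Tfh5, 11 for Tfh1 minus TfhA in Cre-, 1 for Tfh5 minus Tfh1 in Cre-, 1 for Tfh5 minus TfhA in Cre+ and 0 for Tfh5 minus Tfh1 in Cre+. The causes were not tested.

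Leaving out 1 library gave 3 to 8 called genes for Cre+ minus Cre- in Tfh5, 3 to 5 for Tfh1 minus TfhA and 7 to 17 for Tfh5 minus TfhA in Cre-, 1 to 4, 0 to 2 and 0 to 1 for Tfh1 minus TfhA, Tfh5 minus TfhA and Tfh5 minus Tfh1 in Cre+, and 2 to 5 for the genotype difference in Tfh5 minus that in TfhA. With a replicate block the counts were 6, 16 and 0 in Cre- and 4, 3 and 1 in Cre+ for Tfh1 minus TfhA, Tfh5 minus TfhA and Tfh5 minus Tfh1, and 3 for the genotype difference in Tfh5 minus that in TfhA. Deviations of same-numbered libraries correlated at -0.037 to 0.066, and 0 of 18 pairs exceeded 0.1. Pairing by number was thus not seen. These values cannot exclude it, because the spread of single libraries can hide a shared source. In Cre+ minus Cre-, no paired analysis was possible because the labels share no replicate number.

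Where 3 libraries of a group list 0 counts, depth leaves room for up to 3 counts, a limit for counting error only, since PCR copies are not independent molecules.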
